A study of Mus musculus with 21 samples.

Results

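Loss of TRF1 was examined in Trf1f/f mouse embryonic fibroblasts (MEFs), in which both alleles of *Terf1*, the gene of TRF1, carry sites that the Cre recombinase cuts. Cells were infected with an adenovirus that expresses Cre (Ad-Cre, here Trf1f/f +Cre) or with a control adenovirus that expresses GFP (Ad-GFP, here Trf1f/f +GFP), and polyadenylated RNA was sequenced from 3 libraries of each. These 6 libraries, of 21 in the series, were chosen by their labels, which give the line and the virus. The other libraries used here for comparison come from Rtel1f/f MEFs, infected with Ad-Cre or Ad-GFP and collected after 96 h, and from Rtel1f/f MEFs transduced with RTEL1 C1252A/C1255A (RTEL1 CA) and infected with the same viruses, with 3 libraries in each group. The last 3 libraries are from Rtel1f/f cells given Ad-GFP and TMPyP4, a ligand that stabilises G-quadruplex DNA. They entered only the filter, the scaling and the spread of the fit, which took all 21 libraries. The time after infection of the Trf1f/f cells is not in the labels. Both Trf1f/f groups shared the floxed genotype and an adenovirus, and no cells of this line that kept *Terf1* after Ad-Cre were analysed here, so that Cre activity and the loss of *Terf1* cannot be told apart within it. The libraries are labelled as biological replicates, and no label says whether they were separate cultures. The p-values therefore measure only the spread between libraries within the 7 groups of the fit.

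TRF1 is a subunit of shelterin, the protein complex that coats telomeres, and binds the double-stranded telomere repeat directly. It is best known for helping replication forks pass through telomeric DNA, and telomeres that lack it appear broken or stretched in mitosis, a state called telomere fragility. Type I interferons, such as interferon beta, are secreted when sensors such as RIG-I, MDA5 or cGAS meet RNA or DNA in the cytosol, act through their receptor on transcription factors, and switch on a large set of antiviral genes through a promoter motif, the interferon-stimulated response element. The p53 protein is stabilised by DNA damage and raises genes that halt the cell cycle, starting with *Cdkn1a*.

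The motif just named was searched as GAAANNGAAA on both strands in the RefSeq promoters of build GRCm38.p6, each 300 bases long (250 before and 50 after the annotated start of transcription). The first 250 bases of 4 promoters are given, 5′ to 3′ on the strand of the gene, because these are the called genes of the interferon lists described later that had the largest rise among those whose promoter in the table holds the motif there. Capitals mark each match, on either strand.
Gm12250, chr11:58183593-58183842, plus strand: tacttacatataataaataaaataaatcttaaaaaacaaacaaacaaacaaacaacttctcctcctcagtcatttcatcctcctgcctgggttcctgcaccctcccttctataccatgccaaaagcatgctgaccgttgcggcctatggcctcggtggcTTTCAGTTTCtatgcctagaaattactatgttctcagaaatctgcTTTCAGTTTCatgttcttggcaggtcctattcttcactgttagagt
Rsad2, chr12:26456453-26456702, minus strand: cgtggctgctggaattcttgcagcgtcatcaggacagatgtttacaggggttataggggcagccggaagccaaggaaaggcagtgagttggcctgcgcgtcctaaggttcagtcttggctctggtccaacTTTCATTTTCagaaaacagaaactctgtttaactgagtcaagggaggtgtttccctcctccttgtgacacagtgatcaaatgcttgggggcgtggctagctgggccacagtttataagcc
Oas3, chr5:120777660-120777909, minus strand: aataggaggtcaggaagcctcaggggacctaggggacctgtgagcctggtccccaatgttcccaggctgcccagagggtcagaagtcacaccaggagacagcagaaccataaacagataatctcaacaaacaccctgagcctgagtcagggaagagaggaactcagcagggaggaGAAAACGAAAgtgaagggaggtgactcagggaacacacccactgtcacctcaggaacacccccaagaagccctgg
Tgtp1, chr11:48992247-48992496, minus strand: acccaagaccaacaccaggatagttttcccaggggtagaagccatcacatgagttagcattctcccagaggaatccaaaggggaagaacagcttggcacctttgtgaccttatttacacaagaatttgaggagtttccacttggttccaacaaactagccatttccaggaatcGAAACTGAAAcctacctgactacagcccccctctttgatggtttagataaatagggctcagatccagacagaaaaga
The matches begin 46 to 120 bases before the start site in the table. The promoter of *Gm12250* held 2 matches and the other 3 promoters held 1 each.

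Of 24454 genes in the table, 13719 passed a filter on low counts and were tested (edgeR quasi-likelihood test, Benjamini-Hochberg adjustment over all genes tested, 2-sided). A gene is said to be called, or to have risen or fallen, at an adjusted p of at most 0.01, and changes are log2 fold changes of +Cre against +GFP unless stated otherwise. The libraries held between 36786352 and 45262564 counts in Trf1f/f +Cre and between 39208515 and 42532282 in Trf1f/f +GFP. Levels are given as CPM, counts scaled to the size of each library. Markers of fibroblasts were high in both groups, with a summed level of 23200 to 27300 CPM in +Cre and 22700 to 29700 CPM in +GFP over 14 genes. Of 14 myeloid and lymphoid markers, 8 were at 3 counts or fewer in each library, *Ptprc* (the pan-leukocyte antigen CD45) among them, and the sum was 10.1 to 10.5 CPM in +Cre and 8.42 to 9.60 CPM in +GFP. Of the endothelial markers *Tie1*, *Cldn5* and *Emcn*, and of the epithelial markers *Krt14*, *Cldn3* and *Esrp1*, were at 3 counts or fewer in each library. Endothelial markers summed to 18 to 19.1 CPM against 13.6 to 15.0 CPM and epithelial markers to 3.64 to 4.82 CPM against 2.03 to 2.67 CPM, so these 3 low sums did not overlap between the groups and their part in the results was not tested. Neural and myogenic markers summed to 148 to 195 CPM against 147 to 162 CPM. In bulk RNA, fewer cells of a type and less RNA per cell cannot be told apart.

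*Terf1* was lost from the +Cre libraries. It stood at 27.9, 29.6 and 30.3 CPM in the +GFP libraries and at 0.110, 0.0458 and 0.0268 CPM in the +Cre libraries, where only 5, 2 and 1 counts remained. The groups lay far apart, and the level left in +Cre was 0.208% of that in +GFP (95% exact Poisson interval of the summed 8 counts, 0.0896% to 0.409%, which covers counting error only). The log2 fold change was -8.79 (SE 0.159, adjusted p = 3.8e-17). None of the other 23 members of a list of shelterin, CST and telomerase genes was called by edgeR (1 had an unadjusted p under 0.05) or by DESeq2, and the whole list had a median log2 fold change of -0.02. *Rtel1*, the helicase gene deleted in the other lines and named here after its values were seen, was at 43.7 to 49.7 CPM in +Cre and 47.9 to 50 CPM in +GFP (log2 fold change -0.10, adjusted p = 0.626). *Terf1* lies at chr1:15805546-15844052, and the 8 tested genes within 1 Mb of it had log2 fold changes of -0.32 to 0.06, none of them called by edgeR or DESeq2 and 2 with an unadjusted p under 0.05.

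Across the genes tested, rises outnumbered falls. In Trf1f/f cells 469 genes were called (3.42% of those tested), of which 364 rose (2.65%) and 105 fell (0.765%), while the median log2 fold change of all genes tested was 0.0012. The rises were also the larger changes. Their median log2 fold change was 0.98 and 170 of them reached 1, whereas the falls had a median of -0.40 and 5 of them reached -1. All 469 called genes had +Cre and +GFP libraries that did not overlap, as had 26.9% of all genes tested. Leaving out 1 library left 282 to 377 genes called, the lowest number without +Cre replicate 1 and also without +GFP replicate 2.

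**Figure D1:**
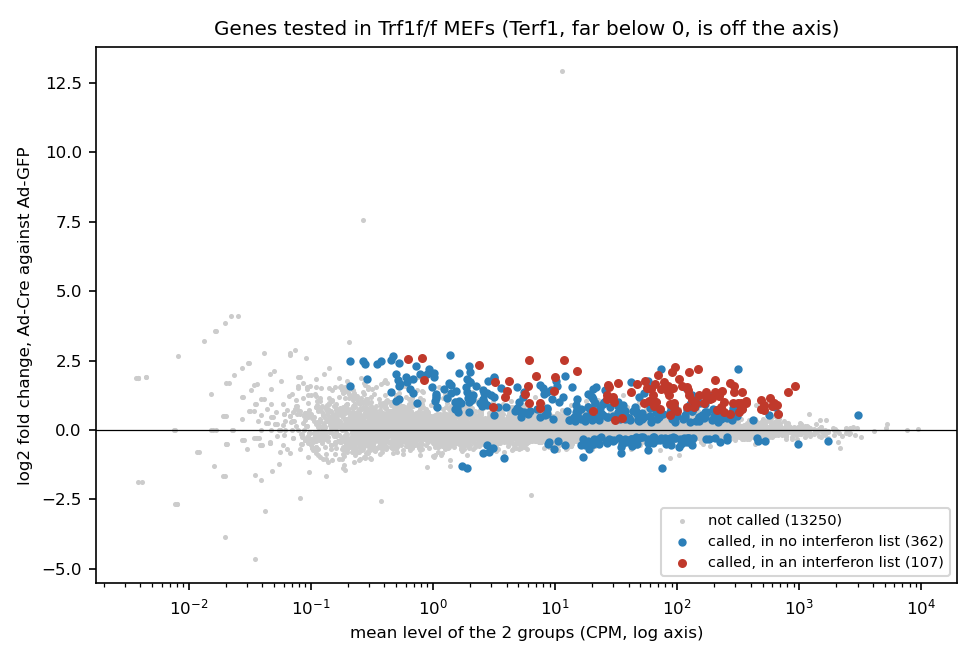
Each point is a gene tested in Trf1f/f MEFs, at its mean level over the +Cre and +GFP groups (CPM, log axis) and its log2 fold change. Red points, the 107 called genes of the interferon lists, all lie above 0, the other 362 called genes are blue, and the 13250 genes not called are grey, with *Terf1* beyond the lower end of the axis.

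Genes of the interferon system made up the largest block of rises among the lists. Across 6 lists of such genes (antiviral effectors, oligoadenylate synthetases, GTPases, sensors of nucleic acids, interferon factors and receptors, and antigen presentation), 107 of the 150 members tested were called up, 138 had a log2 fold change above 0 and the median was 1.00. No member was called down by edgeR or by DESeq2, and 1 had an unadjusted p under 0.05 in that direction. The share called up was 71.3%, beside 2.65% of all genes tested. The 107 genes are 29.4% of all called-up genes. As a share of TPM, which also takes transcript length into account, the 150 genes held 1.81% to 1.94% in the +GFP libraries and 2.74% to 3.66% in the +Cre libraries, without overlap. Their median level was 49.4, 48.1 and 48.3 CPM in +GFP replicates 1 to 3 and 108, 114 and 85.9 CPM in +Cre replicates 1 to 3. Replicate 3 of +Cre, the library with the fewest counts, had the lowest of the 3 +Cre levels for 106 of the 107 called genes, yet without it 107 interferon genes were called, and the count ran from 92 to 107 with any 1 library left out.

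The gene of a type I interferon was among the rises. *Ifnb1*, which encodes interferon beta, had 8, 13 and 8 counts in the +GFP libraries and 56, 89 and 35 counts in the +Cre libraries, so that each +Cre library lay above each +GFP library. In CPM this was 0.228 ± 0.062 against 1.40 ± 0.571 (SD, n = 3 each), a log2 fold change of 2.61 (SE 0.44, adjusted p = 0.00117), although the adjusted p was 0.0105 without +GFP replicate 1 and 0.0107 without +GFP replicate 3. *Ifna4*, an interferon alpha gene named after its values were seen, had 5, 5 and 7 counts in +GFP and 12, 24 and 17 in +Cre and missed the threshold (log2 fold change 1.63, adjusted p = 0.0728). *Ifng*, the type II interferon gene, had 0 counts in all 6 libraries.

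Of the 25 tested interferon factors and receptors, 7 rose, and this list had the lowest median of the 6, at 0.17. *Irf7*, which amplifies interferon production, was at 133, 128 and 118 CPM in +GFP and at 460, 447 and 327 CPM in +Cre (log2 fold change 1.70, SE 0.189, adjusted p = 1.2e-05). *Stat2*, which carries the signal from the receptor, rose from 221 to 265 CPM in +GFP to 385 to 450 CPM in +Cre (0.84, SE 0.0872, adjusted p = 4.6e-06). Both genes kept their call with any 1 library left out, and their groups did not overlap. *Irf5* rose by 1.40, *Irf1* by 0.69 and *Irf2* by 0.37, the last with adjusted p from 0.00284 to 0.0914 over the alternative fits. The receptor genes *Ifnar1* (log2 fold change -0.12, adjusted p = 0.356) and *Ifnar2* (-0.08, adjusted p = 0.664) and the gene of the DNA-binding partner of STAT2, *Irf9* (0.31, adjusted p = 0.0376), were named after their values were seen and were not called.

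**Figure D2:**
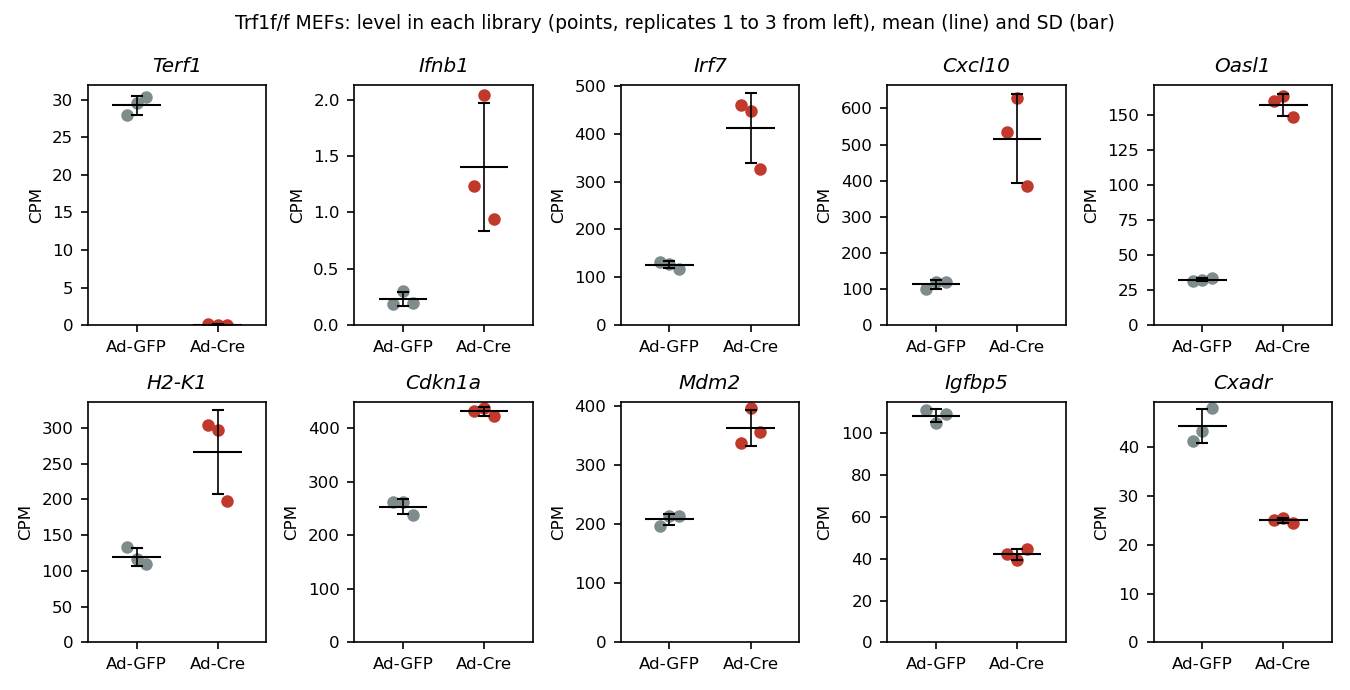
Levels of 10 genes in each Trf1f/f library (CPM, axes from 0), with points for replicates 1 to 3 from left to right, a line at the mean and a bar of 1 SD. *Terf1* is near 0 in all +Cre libraries, and for each of the other 9 genes the +Cre points lie wholly above (*Ifnb1*, *Irf7*, *Cxcl10*, *Oasl1*, *H2-K1*, *Cdkn1a*, *Mdm2*) or wholly below (*Igfbp5*, *Cxadr*) the +GFP points.

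Sensors of foreign nucleic acids rose as well, 13 of 23 tested with a median of 0.71. The RNA sensors *Ifih1* (MDA5, log2 fold change 1.32), *Ddx58* (RIG-I, 0.76) and *Dhx58* (LGP2, 1.48), and the endosomal receptor of double-stranded RNA, *Tlr3* (1.51), were called with any 1 library left out. *Zbp1*, a sensor of left-handed nucleic acid, rose from 27.0, 27.6 and 30.1 CPM in +GFP to 123, 129 and 82.8 CPM in +Cre (1.98, SE 0.167, adjusted p = 7.2e-07). Its lowest +Cre library stood well above its highest +GFP library. *Mb21d1*, the gene of the DNA sensor cGAS, rose by 0.42 (28.6 to 31.3 CPM in +GFP, 37.5 to 42.3 CPM in +Cre, adjusted p = 0.00594), a call that was lost on leaving out any 1 of the 6 libraries. *Tmem173*, the gene of STING, on which cGAS acts, was at 50.7 ± 2.48 CPM in +Cre and 52.1 ± 2.06 CPM in +GFP (SD, n = 3 each, log2 fold change -0.04, adjusted p = 0.886, named after its values were seen). Genes of the PYHIN family of DNA-binding proteins rose together in the list, *Ifi203*, *Ifi204*, *Ifi205*, *Mnda* and *Mndal* by 0.96 to 1.62. All 5 lost their call with a replicate block in the 6 Trf1f/f libraries alone, all but *Mnda* also in these libraries without the block, and *Mndal* without +Cre replicate 2, with adjusted p of up to 0.0341. Enzymes that limit the response were among the rises, *Adar*, which edits double-stranded RNA, by 0.71 and *Samhd1*, which breaks down the building blocks of DNA, by 0.58.

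Antiviral effectors were the list with the most rises, 45 of 50 tested, with a median of 1.04. *Ifi44l* rose by 2.53 from 1.81, 1.59 and 2.08 CPM in +GFP to 11.5, 12.5 and 7.66 CPM in +Cre, and *Rsad2*, the gene of viperin, by 2.20 from 52.9, 51.2 and 56.5 CPM to 266, 282 and 188 CPM. The lowest +Cre library of both genes stood well above the highest +GFP library. *Cmpk2*, a nucleotide kinase that makes the substrate of viperin, rose by 2.08, and *Phf11b* by 1.96. Among the best known effectors, *Mx1* rose by 1.77, *Mx2* by 1.25, *Ifit3* by 1.58, *Ifit2* by 1.37, *Ifit1* by 1.36, *Isg20* by 1.27 and *Eif2ak2*, the gene of the translation-blocking kinase PKR, by 0.66. The ISG15 system, which attaches a ubiquitin-like protein to others, was represented by *Isg15* (0.87, adjusted p = 0.00138, and 0.0117 without +GFP replicate 1), its activating enzyme *Uba7* (1.06), its conjugating enzyme *Ube2l6* (1.25) and its deconjugating enzyme *Usp18* (1.03). *Bst2*, the gene of tetherin, rose by 0.91 and *Xaf1* by 0.76, and each lost its call on leaving out any of 4 libraries, with adjusted p of up to 0.0281 over the alternative fits. *Ifitm3*, whose product blocks entry of enveloped viruses, rose by 0.58.

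Of 9 genes of the oligoadenylate synthetase system, which makes a messenger of antiviral defence, the 8 that rose were all *Oas* or *Oasl* genes. *Oasl1* was at 31.5, 32.4 and 33.5 CPM in +GFP and 160, 164 and 149 CPM in +Cre (2.28, SE 0.152, adjusted p = 7.9e-08), a change of 4.85-fold with groups far apart. *Oas3* rose by 2.13, *Oas2* by 1.74, *Oas1g* by 1.69, *Oas1a* by 1.27 and *Oasl2* by 1.09. The smallest rises were those of *Oas1b* (0.99) and *Oas1c* (0.98, a call lost on leaving out any 1 library other than +Cre replicate 3). Among the interferon-inducible GTPases, which attack the membranes around intracellular pathogens, 18 of 20 rose with a median of 1.54, the highest of the 6 lists. *Gm12250* was at 3.25, 3.26 and 3.95 CPM in +GFP and 23, 23.5 and 13.9 CPM in +Cre, the largest rise among called genes of at least 5 CPM (2.53, SE 0.224, adjusted p = 1.1e-06). The guanylate-binding protein genes *Gbp2*, *Gbp2b*, *Gbp3*, *Gbp5*, *Gbp6*, *Gbp7* and *Gbp9* rose by 1.35 to 1.73, and *Irgm1*, *Irgm2* and *Igtp* by 0.73 to 1.35, the smallest being that of *Irgm1*, which lost its call without +Cre replicate 2. Near-identical members of these families (*Tgtp1* and *Tgtp2*, *Gbp2* and *Gbp2b*, the *Oas1* genes, *Apol9a* and *Apol9b*, the class I genes) share reads that the counting had to divide, so the split between them is uncertain.

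Antigen presentation by class I molecules rose in 16 of 23 tested members, with a median of 0.97. The classical heavy-chain gene *H2-K1* was at 134, 116 and 110 CPM in +GFP and 304, 297 and 198 CPM in +Cre (1.15, SE 0.193, adjusted p = 9.2e-04), without overlap. *H2-D1* rose by 0.97 (adjusted p = 0.0142 without +GFP replicate 3) and the non-classical *H2-Q4* by 1.46. The steps that prepare peptides moved in the same direction. *Psmb9* and *Psmb8*, subunits of the immunoproteasome, rose by 1.96 and 1.66, the peptide transporter subunit *Tap1* by 1.51, and *Nlrc5*, the activator of class I genes, by 1.56. *Tapbp*, the gene of tapasin, rose by 0.96 with adjusted p = 0.00653, but lost its call without any 1 library other than +Cre replicate 3, with adjusted p of up to 0.0416. Of the class II genes, *H2-Aa* had 0 counts in all 6 libraries and their activator *Ciita* at most 2.

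Many of the genes that rose lie side by side. Taking the tested genes in their order on each chromosome, 109 of the 362 called-up genes with a position (30.1%) adjoined another called-up gene. Of all genes tested, 2.65% were called up. There were 7 runs of at least 4 such genes, which held 40 genes. Some neighbours, such as *Tgtp1* and *Tgtp2*, are near-identical copies that share reads, so they are not separate measurements. The longest run held 9 genes of the PYHIN cluster at chr1:173630859-174031755, with log2 fold changes of 0.96 to 2.05. Runs of 6 genes were found in the *Ifit* cluster on chromosome 19, the *Oas* cluster on chromosome 5 and the cluster of *Tgtp1*, *Tgtp2* and *Ifi47* on chromosome 11, a run of 5 in the *Gbp* cluster on chromosome 3, and runs of 4 between *H2-D1* and *H2-Q7* of chromosome 17 and around *Iigp1* on chromosome 18. By symbol stem, 454 gene families had at least 5 tested members, and in 20 of them at least 25% of the members were called. *Ifit* and *Oas* families were called in 6 of 6 members each, *Gbp* in 7 of 8, *Ifi* in 9 of 12, *Slfn* (Schlafen genes, which restrict growth and viruses) in 4 of 6 and *H2-* in 11 of 18. The families were sorted by the same calls, and families are no independent samples.

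The motif marked in the printed promoters was found in a larger share of the rises than of the other genes. A promoter was found for 10829 of the genes tested, and 401 of these (3.70%) held GAAANNGAAA, against 3.44% of all 32851 promoter windows in the table. Of the called-up genes with a promoter, 69 of 287 (24%) held it, compared with 5 of 76 (6.58%) of the called-down genes and 3.12% of the genes not called. Within the interferon lists, it was present in 45 of 87 called-up genes (51.7%) and 4 of 29 genes not called (13.8%). It was also present in 24 of 200 called-up genes of no interferon list (12%). These shares are descriptions of letters in a window and were not tested.

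Secreted immune signals rose beyond interferon itself. Of 23 tested chemokines and cytokines, 12 rose, 1 fell and the median was 0.73 (56.5% called, beside 3.42% of all genes tested). *Cxcl10*, which attracts T cells and is a standard interferon target, was at 98.8, 120 and 119 CPM in +GFP and 535, 629 and 386 CPM in +Cre (log2 fold change 2.20, SE 0.168, adjusted p = 3.2e-07), a 4.59-fold change without overlap. *Ccl5*, which attracts T cells and macrophages, rose by 2.20 from 23.9 to 27.9 CPM to 99.1 to 144 CPM, and *Cxcl11*, which shares the receptor of *Cxcl10*, by 2.71 from a low level. The monocyte attractants *Ccl2* and *Ccl7* rose by 1.5 and 1.75, and *Il15*, which sustains natural killer cells, by 1.45. The single fall was that of *Cxcl12*, the stromal chemokine that retains stem cells, at 1030, 1180 and 1240 CPM in +GFP and 797, 907 and 734 CPM in +Cre (-0.50, adjusted p = 0.00264), a call that was lost in 6 of 13 alternative fits and a gene named after its values were seen. Among 20 general NF-kB targets 1 was called (5.0%, beside 3.42% of all genes tested). It was *Tnfaip3*, the gene of the inhibitor A20 (0.75, adjusted p = 1.5e-05), and the list's median was 0.17.

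**Figure D3:**
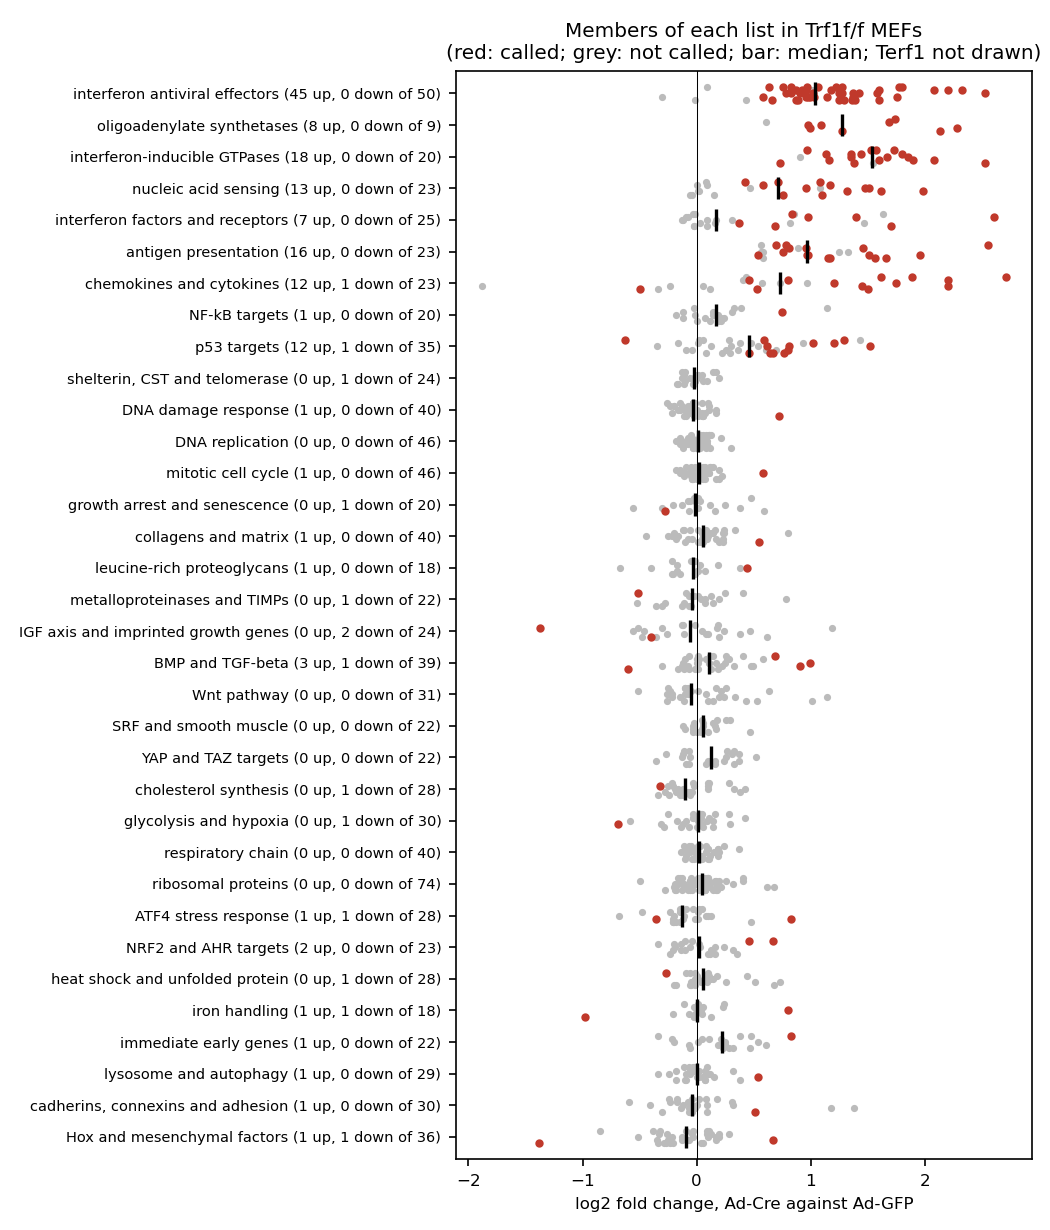
Log2 fold change of each tested member of 34 gene lists in Trf1f/f MEFs, with the member count called up and down after each name, red points called and grey points not called, and a bar at the median. The medians of p53 targets, of chemokines and of all interferon lists but that of factors and receptors lie at 0.46 or above, and the other medians between -0.13 and 0.22.

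Targets of p53 were the other group with many rises. Of 35 tested, 12 rose and 1 fell, with a median of 0.46 and 30 above 0. The share called was 37.1%, beside 3.42% of all genes tested. *Cdkn1a*, the gene of the p21 inhibitor of cyclin-dependent kinases, was at 261, 261 and 238 CPM in +GFP and 432, 438 and 422 CPM in +Cre (log2 fold change 0.77, SE 0.0548, adjusted p = 1.8e-07). Its groups did not overlap, and +Cre replicate 3 did not stand apart as it did for the interferon genes. *Mdm2*, which encodes the ligase that degrades p53, rose by 0.80 from 198 to 215 CPM to 338 to 398 CPM, and *Ccng1* (cyclin G1) by 0.81 from 443 to 466 CPM to 788 to 821 CPM. *Perp*, a membrane protein of apoptosis and adhesion, rose by 1.52, the co-stimulatory ligand gene *Cd80* by 1.29 and *Eda2r*, a receptor of the TNF family, by 1.02. The fall was that of *Gadd45a*, a stress gene that p53 can raise, from 40.6 to 43.8 CPM to 24.7 to 29.3 CPM (-0.63, adjusted p = 2.7e-04). Each of the 6 rises named here was called in all 13 alternative fits.

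**Figure D4:**
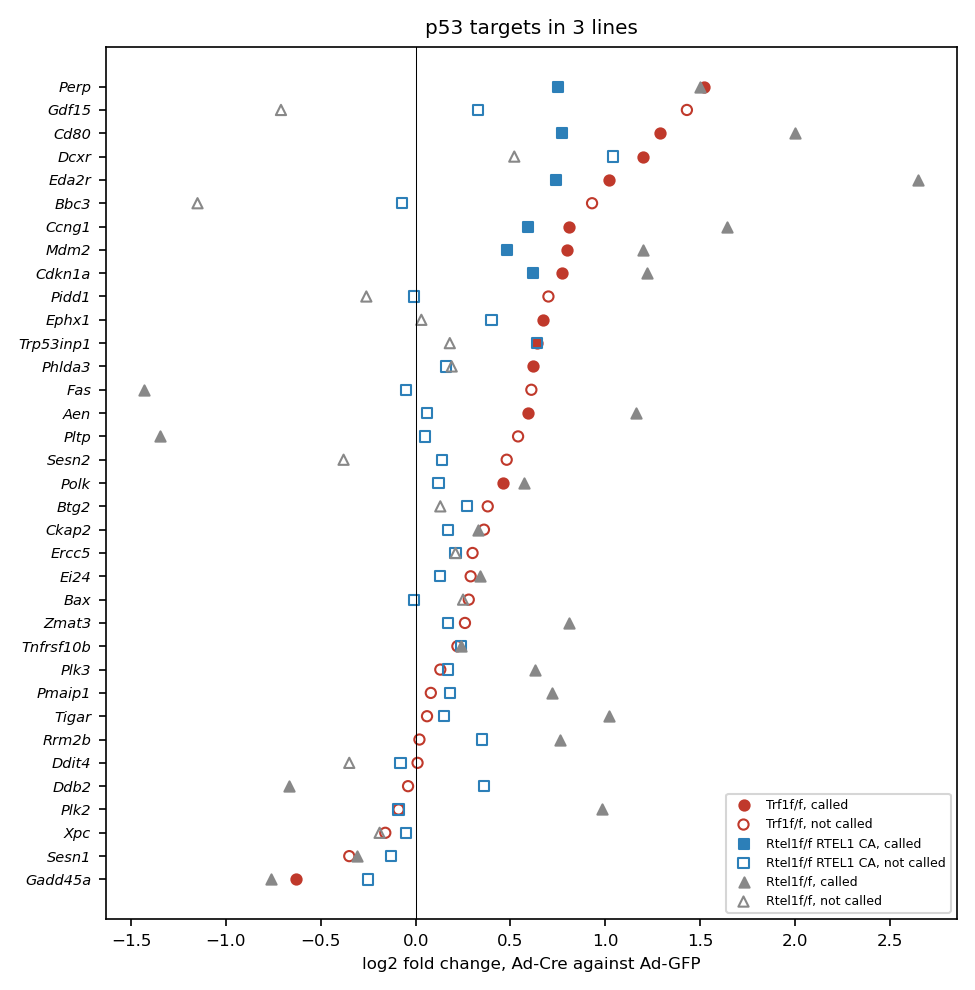
Log2 fold change of +Cre against +GFP for 35 p53 targets in Trf1f/f (red circles), Rtel1f/f with RTEL1 CA (blue squares) and Rtel1f/f (grey triangles) MEFs, filled where the adjusted p was at most 0.01. *Cdkn1a*, *Mdm2*, *Ccng1*, *Perp*, *Cd80* and *Eda2r* are filled on the right of 0 in all 3 lines.

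In the lists of replication, division, damage response and growth arrest genes, 0% to 5.0% were called, beside 3.42% of all genes tested. None of 46 tested DNA replication genes was called by edgeR or by DESeq2 (3 had an unadjusted p under 0.05), and their log2 fold changes ran from -0.18 to 0.30. The replication clamp *Pcna* was at 350 to 427 CPM in +Cre and 351 to 423 CPM in +GFP, and *Mcm6*, a subunit of the replicative helicase, at 448 to 511 CPM and 443 to 490 CPM, so that the ranges overlapped. Of 46 mitotic genes, 1 was called, *Ccne1* (cyclin E1, an S phase regulator), which rose by 0.58 (SE 0.0739, adjusted p = 4.3e-05) from 58.4 to 61.1 CPM to 85.9 to 90.1 CPM. The median of the mitotic list was 0.02. Of 40 DNA damage response genes, *Atm*, which encodes the kinase that answers double-strand breaks, was the 1 called (0.72, SE 0.11, adjusted p = 3.0e-04), at 84.4 to 94.1 CPM in +GFP and 128 to 167 CPM in +Cre. Of 20 growth arrest and senescence genes, *Lmnb1*, the gene of lamin B1, was the 1 called. It fell by 0.28 from 141 to 156 CPM to 121 to 123 CPM (adjusted p = 0.00349), and lost the call in 9 of the 13 alternative fits.

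The 105 falls were mostly shallow, and 90 of them are in none of the lists. After *Terf1*, the largest fall among genes of at least 5 CPM was that of *Igfbp5*, a secreted binding protein of insulin-like growth factors, at 111, 105 and 109 CPM in +GFP and 42.4, 39.3 and 44.4 CPM in +Cre (log2 fold change -1.37, SE 0.155, adjusted p = 1.2e-05), a 2.58-fold change without overlap. *Slc40a1*, the gene of the iron exporter ferroportin, was next at 21.6, 21.6 and 23.7 CPM in +GFP and 12.6, 11.4 and 9.88 CPM in +Cre (-0.98, adjusted p = 0.00152, and 0.0114 without +Cre replicate 3). *Cxadr*, which encodes the receptor through which many adenoviruses attach, was at 41.4, 43.4 and 48.2 CPM in +GFP and 25.1, 25.6 and 24.6 CPM in +Cre (-0.82, SE 0.0865, adjusted p = 5.2e-06). Both groups had received an adenovirus. The other falls of this rank were *Hmgb3* (-0.74, a chromatin protein), *Egln3* (-0.69, an oxygen-dependent hydroxylase of hypoxia signalling), *Fam199x* (-0.69), *Tgfbi* (-0.60, a matrix protein induced by TGF-beta), *Mex3b* (-0.59, an RNA-binding protein), *Fam20a* (-0.58) and *Stmn2* (-0.56, a tubulin-binding protein). *Mex3b* lost its call in 8 of 13 alternative fits, *Stmn2* in 4, *Egln3* in 3, *Hmgb3* in 2 and *Tgfbi* and *Fam199x* in 1 each.

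In the lists of fibroblast programmes, 0% to 10.3% of the members tested were called, beside 3.42% of all genes tested. Of 40 collagen and matrix genes 1 was called, *Thbs1* (thrombospondin 1), which rose by 0.55 from 2280 to 2700 CPM to 3560 to 3700 CPM (adjusted p = 9.9e-04, and 0.0106 without +GFP replicate 3), and the list's median was 0.06. The call of *Thbs1* was lost in 2 of 13 alternative fits, with adjusted p of up to 0.0151. In the BMP and TGF-beta list 3 of 39 rose and *Tgfbi* fell. The rises were *Inhbb*, an activin subunit (0.99, SE 0.136, adjusted p = 1.0e-04), *Fst*, the gene of follistatin, which binds activins (0.91, adjusted p = 6.0e-05), and *Bambi*, a decoy receptor (0.69, adjusted p = 4.3e-05), each without overlap between groups. In the IGF and imprinted gene list 2 of 24 fell, *Igfbp5* and *Grb10* (-0.40, an adaptor that restrains insulin signalling). Of the metalloproteinase and TIMP genes *Mmp11* fell by 0.51, of the proteoglycans *Sdc4* rose by 0.44, of the adhesion genes *Cd44* rose by 0.51, and among Hox and mesenchymal factors *Meox1* fell by 1.38 from a low level and *Foxf1* rose by 0.67. No member of the Wnt (31 tested), SRF and smooth muscle (22) or YAP and TAZ (22) lists was called by edgeR, while 7, 1 and 8 members had an unadjusted p under 0.05 and DESeq2 called 0, 0 and 2.

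Lists of metabolic and stress genes held at most 2 calls each, a share of 0% to 11.1% beside 3.42% of all genes tested. None of 74 ribosomal protein genes and none of 40 respiratory chain genes was called by edgeR or DESeq2 or had an unadjusted p under 0.05, with medians of 0.05 and 0.02. Single members were called in other lists. *Sqle* of cholesterol synthesis fell by 0.32, *Egln3* is the 1 member of glycolysis and hypoxia, and *Atf3*, an early stress factor that is in the lists of ATF4 targets and of immediate early genes, rose by 0.83 (12.5 to 14.2 CPM in +GFP, 21 to 26.3 CPM in +Cre, adjusted p = 2.3e-05), while *Vldlr* fell by 0.36. The NRF2 and AHR list held 2 rises, *Ephx1* (0.67) and *Tiparp* (0.46), the iron list *Hfe* (0.80) beside the fall of *Slc40a1*, the lysosome list *Npc2* (0.54), and the unfolded protein list a fall of *Herpud1* (-0.27). Of these single calls, *Tiparp* and *Herpud1* were lost in 11 of 13 alternative fits, *Hfe* in 10, *Sqle* in 9, *Foxf1* in 7, *Vldlr* and *Npc2* in 6, *Sdc4*, *Cd44* and *Grb10* in 5 and *Ephx1* in 2, and *Atf3*, *Inhbb*, *Fst*, *Bambi* and *Mmp11* in none. The marker genes called were *Pdgfra* of fibroblasts (-0.43) and *Kdr* of endothelium (0.90, 1.53 to 2.14 CPM in +GFP, 3.37 to 3.75 CPM in +Cre), and each was lost in 8 of the fits.

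The change after Ad-Cre was compared with that in other lines as a difference of the 2 changes, in the same fit. Against Rtel1f/f MEFs with RTEL1 CA, where Ad-Cre removes the endogenous *Rtel1* and 150 genes were called (1.09%), 85 genes differed (0.620%). They included 19 genes of the interferon lists, all with the larger change in Trf1f/f cells, *Stat2* (0.84 in Trf1f/f and 0.04 in RTEL1 CA, difference 0.80, adjusted p = 0.00204), *Oasl1* (2.28 and 0.74, difference 1.54, adjusted p = 0.00164) and *Ifit3* (1.58 and 0.01, difference 1.57, adjusted p = 7.0e-04) among them, and the chemokine *Cxcl10* (2.20 and 0.53, difference 1.67, adjusted p = 9.0e-04). Over the 150 interferon genes the median difference was 0.74, 86 had an unadjusted p under 0.05 for the difference by edgeR, and DESeq2 called 35. In RTEL1 CA cells 107 of the 150 interferon genes had a log2 fold change above 0 and the median was 0.15. Called there were 2, *Apol9a* (0.97) and *Apol9b* (0.94). The 150 genes passed a filter over all 21 libraries, and some were poorly measured in RTEL1 CA cells. The SE of *Ifi44l* was 1.45 there and 0.227 in Trf1f/f cells, and that of *Gbp9* 1.69 and 0.272. How far low counts limit the calls and the median of RTEL1 CA cells was not tested. With 1 Trf1f/f library left out, 27 to 89 genes differed between these lines. *Cxadr* differed as well (-0.82 in Trf1f/f and 0.02 in RTEL1 CA, difference -0.84, adjusted p = 0.00117).

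In Rtel1f/f MEFs, where 5902 genes were called (43.0%), the change after Ad-Cre differed from that in Trf1f/f cells for 4147 genes (30.2%) and for 116 of the 150 interferon genes. There, 82 of the 150 were called down, 6 up, and the median was -0.73. Some of the 150, such as *Ifi44l* and *Sp110*, had an estimate of 0.0 with an SE of 0.0 there, so their change could not be measured. *Irf7* fell by 2.51 and *Stat2* by 1.10 in Rtel1f/f cells. The starting levels also differed between the lines. The median level of the 150 genes was 48.1 to 49.4 CPM in Trf1f/f +GFP, 9.03 to 10.8 CPM in Rtel1f/f +GFP and 2.78 to 3.88 CPM in RTEL1 CA +GFP, so a line's own level before Cre and the locus deleted cannot be told apart in this comparison.

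**Figure D5:**
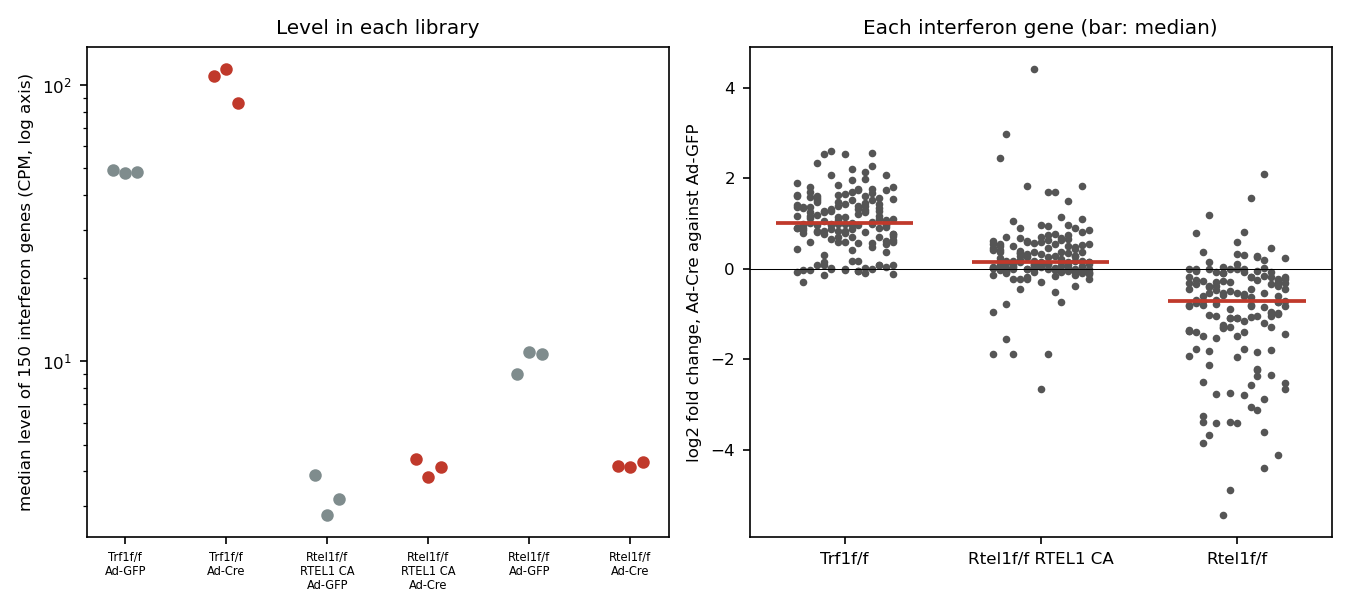
Left, the median level of 150 interferon genes in each library (CPM, log axis), grey for +GFP and red for +Cre. Right, each gene's log2 fold change in the 3 lines with a bar at the median, at 1.00 in Trf1f/f, 0.15 in RTEL1 CA and -0.73 in Rtel1f/f cells.

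Of the 35 p53 targets tested, 6 were called up in RTEL1 CA cells (*Cdkn1a*, *Perp*, *Mdm2*, *Ccng1*, *Cd80* and *Eda2r*, the same 6 that are named for Trf1f/f cells), and 17 were called up and 5 down in Rtel1f/f cells. Over all genes tested, 1.09% were called in RTEL1 CA cells and 43.0% in Rtel1f/f cells. None of the 35 differed in its change between Trf1f/f and RTEL1 CA cells by edgeR, while 10 had an unadjusted p under 0.05 and DESeq2 called 2. *Cdkn1a* changed by 0.77 in Trf1f/f, 0.62 in RTEL1 CA and 1.22 in Rtel1f/f cells. The median level of the 35 genes also differed before Cre. It was 42.1 to 43.8 CPM in Trf1f/f +GFP, 29.0 to 34.6 CPM in Rtel1f/f +GFP and 27.1 to 28.7 CPM in RTEL1 CA +GFP. A line's own level and the locus deleted cannot be told apart here either. Against Rtel1f/f cells 15 of the 35 differed, 4 with the higher and 11 with the lower value in Trf1f/f cells, beside 30.2% of all genes tested that differed.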

How the data were processed

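RNA from MEFs was sequenced as single-end, strand-specific libraries made with the KAPA mRNA Hyper Prep kit. Per the labels, cutadapt 1.9.1 served the authors for trimming, STAR 2.5.2a for alignment to mm10 and RSEM 1.3.0 for quantification, and they deposited 1 table with expected counts and TPM values for each of 21 libraries in 7 groups of 3. The processing notes also name DESeq2 1.28.0. The expected counts deposited by the authors were whole numbers and were tested as they stood. The TPM values deposited by the authors were used only for shares of transcripts and were not tested. RSEM divides reads between near-identical genes, so values of such copies are uncertain.

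Genes were filtered with filterByExpr, scaled by TMM and fitted with the robust quasi-likelihood test of edgeR 4.0.16 in R 4.3.3, with 1 coefficient per group over all 21 libraries and 14 residual degrees of freedom. Adjusted p-values are Benjamini-Hochberg values over 13719 genes, 2-sided, with a threshold of 0.01. Differences between lines were contrasts of the same fit. Levels are CPM on TMM-scaled library sizes. Other settings tried were a DESeq2 1.42.0 fit, edgeR on DESeq2 size factors, other filters and thresholds, the 6 Trf1f/f libraries alone, a replicate block, and leaving out each library. The script was tested on simulated counts. Summaries used Python 3.11.15 with pandas 2.3.3, numpy 2.4.6 and matplotlib 3.10.9.

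The comparison, the 34 gene lists and 5 marker lists were chosen with earlier results of these data known. Genes were named by a rule: *Terf1* with its neighbours within 1 Mb and called shelterin genes, the 12 largest rises and 12 largest falls among called genes of at least 5 CPM whose groups did not overlap, and in each list up to 6 called members with the smallest adjusted p (all called members in the interferon lists), or the highest members where none was called. Some named genes are not reported here. Genes outside the rule are said to be so where they appear. Of the 24454 gene symbols, 23363 matched a RefSeq symbol, 949 a synonym and 142 neither, and coordinates are those of GRCm38.p6. Library totals limit precision, and intervals on counts cover counting error only. Replicate numbers were checked for pairing by correlating deviations from the group means over 12045 genes.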

Additional observations from a re-analysis of the deposited data

Results flagged for a closer look

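The change after Ad-Cre differed between lines by a test of the difference itself (edgeR, adjusted p of at most 0.01) for the results that follow. Between Trf1f/f and RTEL1 CA cells it differed for 85 genes, 19 of them interferon genes. The differences, Trf1f/f minus RTEL1 CA on the log2 scale, were 1.54 for *Oasl1*, 1.67 for *Cxcl10*, -8.72 for *Terf1* and -0.84 for *Cxadr*.

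Between Trf1f/f and Rtel1f/f cells it differed for 4147 genes, 116 of them interferon genes. Among the genes that rose in Trf1f/f cells, the log2 difference was 2.92 for *Gm12250*, 2.81 for *Oasl1*, 2.61 for *Ccl5*, 1.82 for *Cxcl10*, 2.27 for *Rsad2*, 4.51 for *Oas3*, 3.07 for *Cmpk2*, 3.34 for *Tgtp1*, 3.02 for *Zbp1* and 4.76 for *Psmb9*. The difference of *Oas3* had an SE of 0.974, and its change in Rtel1f/f cells was -2.38 (SE 0.976) and was not called. Among the genes that fell, it was -9.06 for *Terf1*, -1.01 for *Hmgb3*, -1.05 for *Fam199x*, -1.40 for *Egln3* and -1.0 for *Stmn2*. It was above 0 for *Slc40a1* (1.73), *Tgfbi* (1.79) and *Fam20a* (1.18), which had the larger fall in Rtel1f/f cells.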

How the results depend on the processing

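Calls that were shared between settings never had opposite directions, and 455 of the 469 called genes (97.0%) were also called by DESeq2. At an adjusted p of at most 0.05, 872 genes were called (556 up, 316 down) and 195 differed from RTEL1 CA cells. With an added log2 fold change of at least 1, 175 genes were called (170 up, 5 down), 68 of them interferon genes, and 1569 and 31 genes differed from Rtel1f/f and RTEL1 CA cells. DESeq2 called 639 genes, 202 of them down, and 189 differences from RTEL1 CA cells; its share of rises was 68.4%. With any 1 library left out, 282 to 377 genes were called, 246 to 330 up and 32 to 58 down, and 92 to 107 interferon genes. The count of calls was 282 and 294 on leaving out +Cre replicates 1 and 2 in turn, and 282 and 301 for +GFP replicates 2 and 3, and the count of falls moved by more than 1.5 times without any 1 library (32, 38 and 47 without +Cre replicates 1 to 3, 58, 36 and 40 without +GFP replicates 1 to 3). Genes that differed from Rtel1f/f cells numbered 3169 to 4013 and those that differed from RTEL1 CA cells 27 to 89, at 31 and 34 without +Cre replicates 1 and 2 and at 48, 27 and 51 without +GFP replicates 1 to 3. The cause of these shifts was not tested. Of 179 called genes that were named by rule or after their values were seen, 105 kept their call in every fit that gave a value.

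Same-numbered +Cre and +GFP libraries had correlated deviations of 0.55, 0.365 and -0.114 for numbers 1 to 3, so the numbers were not taken to pair the libraries, and +Cre replicate 2 and 3 each correlated best with another number. With the 6 Trf1f/f libraries alone 401 genes were called, 330 up and 71 down. A replicate block for the Trf1f/f libraries within the fit of all 21 libraries gave 382 genes, 313 up and 69 down. In the 6 Trf1f/f libraries alone it gave 222 genes, 199 up and 23 down.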

Other observations

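The lists left 218 called-up and 90 called-down genes undescribed, and the genes named here were chosen after their values were seen. *Mlkl*, the executioner of necroptosis, was at 41.2, 45.0 and 44.2 CPM in +GFP and 85.2, 96.9 and 74.5 CPM in +Cre (log2 fold change 0.98, edgeR adjusted p = 6.2e-06), without overlap. *Gsdmd*, the pore former of pyroptosis, rose by 0.66, and *Casp4*, the caspase that cleaves it, by 1.07, a call lost in 7 of 12 alternative fits. *Cd274*, the gene of the T cell inhibitor PD-L1, was at 6.31, 7.29 and 7.42 CPM in +GFP and 21.4, 23.3 and 17.2 CPM in +Cre (1.56, adjusted p = 1.4e-05). The interleukin-15 receptor gene *Il15ra* rose by 0.99, *Il18bp*, which encodes a decoy of interleukin-18, by 1.27, the galectin gene *Lgals9* by 1.27 and *Trim14* by 1.78. *Pml* and *Daxx*, whose products meet in PML nuclear bodies, rose by 0.76 and 0.86, and each was called in all 13 alternative fits. The p53 targets *Trp53inp1* (0.64, lost in 7 of 13 fits) and *Aen* (0.59, lost in none) rose as well. From very low levels, the keratin gene *Krt16* rose by 2.01 (0.278 to 0.460 CPM in +GFP) and *Krt17* by 2.37, the latter lost in 7 of 12 fits.

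Among the falls, the genes of the fatty acid enzymes *Scd2*, a desaturase, and *Elovl6*, an elongase, fell by 0.41 and 0.46, the isocitrate dehydrogenase genes *Idh1* and *Idh2* by 0.42 and 0.34, and *Glul*, the glutamine synthetase gene, by 0.33. *Scd2* was at 1830, 1990 and 2020 CPM in +GFP and 1390, 1510 and 1500 CPM in +Cre, without overlap. Each of these 5 calls was lost in at least 2 of 13 alternative fits. *Gas1*, a growth arrest gene, was at 153 to 163 CPM in +GFP and 97.8 to 115 CPM in +Cre (log2 fold change -0.53), with an adjusted p of at most 0.00895 in all 13 alternative fits.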
